A study of Mus musculus with 18 samples.

Results

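Mitochondrially encoded genes are the genes that the small circular genome of the mitochondrion carries itself. The members are all genes on chrM in the gene models deposited with the study, 37 of the 23457 genes in its count table. They are 2 ribosomal RNAs (rRNAs), 13 messenger RNAs (mRNAs) and 22 transfer RNAs (tRNAs), and each was found in the count table by its Ensembl gene ID. The rule used no measured value.

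RNA was sequenced from the ventricles of 18 male C57BL/6 mice aged 17 weeks, 6 in each of 3 groups that had received an adeno-associated viral vector, rAAV6, by tail vein at 8 weeks of age. The rAAV6-PLCb1b and rAAV6-PLCb1a groups carried FLAG-tagged forms of either splice variant of the signalling enzyme phospholipase C beta 1, and the rAAV6-blank group carried a vector with a promoter and no protein product. The study's methods do not name the promoter, and they give the left ventricle as the tissue where the sample labels give both ventricles. Hearts were collected 9 weeks after injection, and each heart is from its own mouse, named here by group and mouse number (blank 26).

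The mitochondrial genome encodes core subunits of the respiratory chain complexes I, III, IV and V, together with the rRNAs and tRNAs needed to translate them inside the organelle. Both of its strands are transcribed as long precursors, from which most mRNAs and rRNAs are released by cutting out the tRNAs between them. Heart muscle is rich in mitochondria, so mitochondrial transcripts make up much of its RNA.

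Total counts per heart ranged from 13246339 to 24155465. The lowest, median and highest totals were 13354157, 19081569.5 and 21470365 in blank hearts, 13246339, 17959753 and 24155465 in PLCb1a hearts, and 16090533, 19472041 and 22669587 in PLCb1b hearts. The depths of the 3 groups overlapped. Counts of nuclear genes alone were 3908354 to 7591558 per heart, and they serve below as the scale for levels: a level is given as counts per 1000000 nuclear counts. Plcb1, the gene of the vectors' enzyme, checks the labels: its level was 17.8, 20.2 and 22.5 in blank hearts, 58.2, 70.7 and 96.0 in PLCb1a hearts and 76.1, 149.9 and 230.1 in PLCb1b hearts, each as lowest, median and highest. Both vector groups lay above every blank heart, with log2 fold changes of 2.90 ± 0.20 (SE, n = 6 against 6) for PLCb1b and 1.82 ± 0.21 for PLCb1a and Benjamini-Hochberg adjusted p of 4.6e-10 and 1.6e-05 by edgeR's quasi-likelihood test. Plcb1 was also higher in PLCb1b than in PLCb1a hearts, with a log2 fold change of 1.09 ± 0.17 and an adjusted p of 0.00919 by the same edgeR test. It was the 1 gene called in that comparison, and the call depends on the settings: its Benjamini-Hochberg adjusted p was 0.801 with robust dispersions in edgeR's quasi-likelihood test, 0.633 with limma on log2(FPKM + 1) and 0.00501 with DESeq2. The part of the level of Plcb1 in the values below was not tested.

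Most counts of every library came from the mitochondrial genome. The 37 genes took 67.8, 69.1 and 70.3% of all counts in blank hearts, 67.1, 68.4 and 70.5% in PLCb1a hearts and 68.7, 69.9 and 71.9% in PLCb1b hearts (lowest, median and highest). Although the libraries were made from RNA depleted of rRNA, the 2 mitochondrial rRNAs alone held 60.0 to 64.5% of counts. The 13 mRNAs held 6.44, 6.59 and 7.56% in blank, 6.83, 7.15 and 7.65% in PLCb1a and 6.69, 7.30 and 7.66% in PLCb1b hearts. The median was lowest in blank hearts, and the 3 groups overlapped. The 22 tRNAs together held 0.00853 to 0.0201% of counts, with both extremes among the blank hearts. Counting error is small beside these spreads: in PLCb1a 14, the heart with the fewest counts, the 95% Wilson interval is 56.07 to 56.13% for mt-Rnr2 and 0.0168 to 0.0182% for the tRNAs, for counting error only. In RNA from whole tissue, fewer mitochondria-rich cells and less RNA per cell cannot be told apart.

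**Figure D1:**
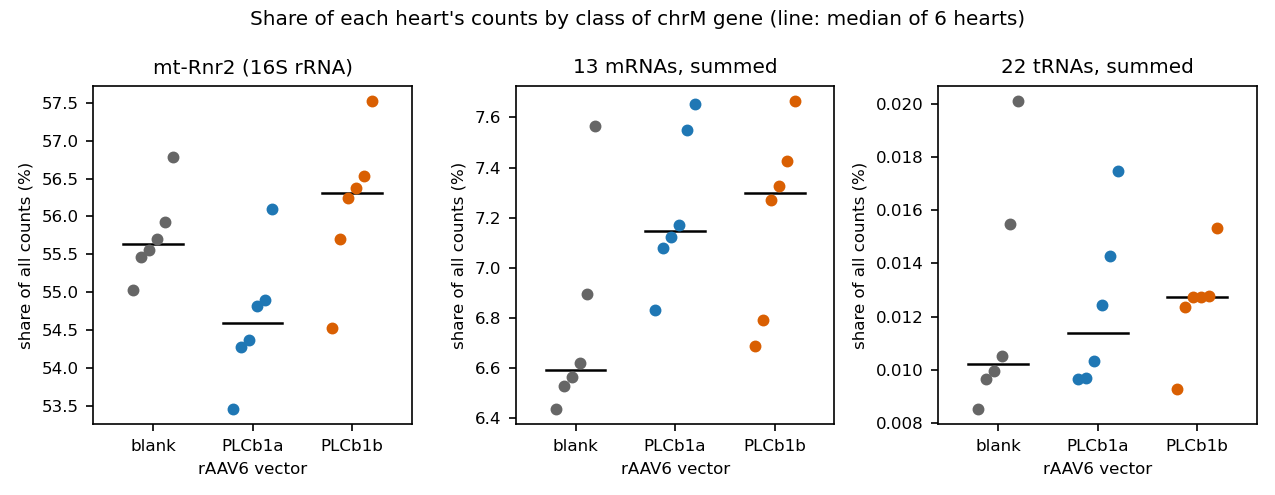
Share of all counts, in percent, taken by mt-Rnr2, by the summed mRNAs and by the summed tRNAs in each heart (points) with the median of 6 hearts (lines). The PLCb1a hearts have the lowest median share of mt-Rnr2, 54.6%, and the blank hearts the lowest median share of mRNAs, 6.59%; the groups overlap in each panel.

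PLCb1b against blank shows what goes with the PLCb1b vector, PLCb1a against blank the same for the other splice variant, and PLCb1b against PLCb1a sets the variants against each other. Of the 37 genes, 22 passed the filter on low counts and were tested: both rRNAs, 11 mRNAs and 9 tRNAs. None was called at a false discovery rate below 0.1 in PLCb1b against blank, by edgeR's quasi-likelihood test with Benjamini-Hochberg adjustment, where 0.0977% of all 12281 genes tested were called. At an unadjusted p below 0.05 edgeR counted 4 members, all higher in PLCb1b, and DESeq2 counted 2, with none called by either tool. In PLCb1a against blank none was called by edgeR's quasi-likelihood test with Benjamini-Hochberg adjustment, where 0.0814% of all genes were, and 0 members had an unadjusted p below 0.05 by edgeR or by DESeq2. In PLCb1b against PLCb1a none was called by the same edgeR test with Benjamini-Hochberg adjustment, where 0.00814% of all genes were, and 1 member had an unadjusted p below 0.05 by edgeR and 2 by DESeq2. DESeq2 called none of the members in any comparison.

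The counts at an unadjusted p below 0.05 by edgeR moved with single hearts. In PLCb1b against blank the 4 members became 2 without blank 34, blank 36, PLCb1b 16 or PLCb1b 17 and 6 without blank 30, and 2 with robust dispersions. The 0 members in PLCb1a against blank became 4 without blank 30, 2 without PLCb1a 21, 1 without PLCb1a 13 or PLCb1a 14, and 2 with library size alone or with no filter. In PLCb1b against PLCb1a there were 2 without PLCb1a 7, PLCb1a 14, PLCb1b 6, PLCb1b 8 or PLCb1b 16, and 2 with library size alone or with no filter. The share with an unadjusted p below 0.05 by edgeR was 18.2% of tested members and 7.43% of all genes in PLCb1b against blank, 0 and 8.81% in PLCb1a against blank, and 4.55 and 4.56% in PLCb1b against PLCb1a.

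The members' log2 fold changes were small. Their median was 0.16 in PLCb1b against blank, 0.035 in PLCb1a against blank and 0.10 in PLCb1b against PLCb1a, beside medians of -0.00089, -0.0018 and 0.00088 over all genes tested. Values lay above 0 for 20, 14 and 19 of the 22 tested members in the same order, while scaling to the summed mitochondrial mRNAs, which sets some of them below 0 by construction, did so for mt-Nd1, mt-Co1 and mt-Nd6 in both comparisons with blank, and library size alone put them below 0 in PLCb1b against PLCb1a. Both comparisons with blank use the same 6 blank hearts, and the members of each heart share their library and scale, so the signs are not independent of each other. Without blank 30 the median in PLCb1b against blank was 0.28 and without blank 34 it was 0.060. In PLCb1a against blank it was 0.16 without blank 30, and it turned below 0 without blank 36 (-0.036), blank 33 (-0.032), blank 34 (-0.024) or PLCb1a 7 (-0.0044). In PLCb1b against PLCb1a it was 0.17 without PLCb1a 14 and 0.038 without PLCb1a 21.

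**Figure D2:**
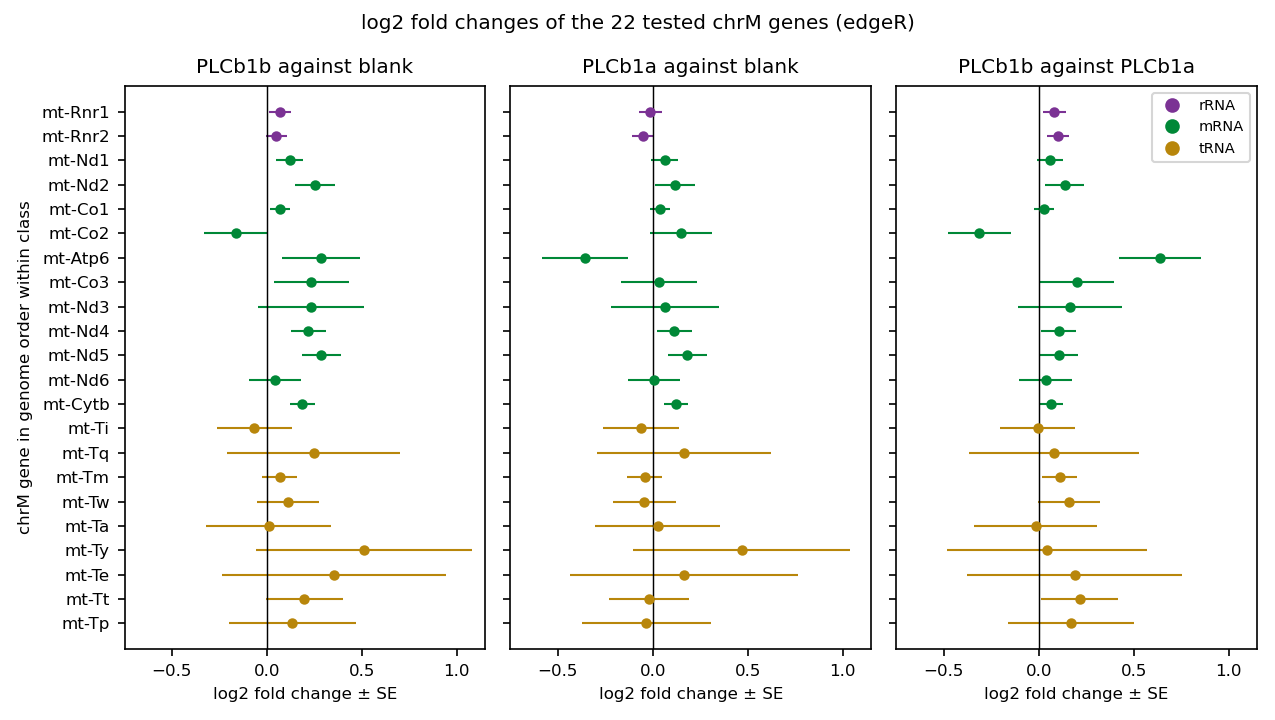
log2 fold change with its SE for the 22 tested mitochondrial genes in each of the 3 comparisons (6 hearts against 6), from edgeR. In PLCb1b against blank 20 of the 22 values lie above 0 (scaled to the summed mitochondrial mRNAs, where some must lie below 0 by construction, mt-Nd1, mt-Co1 and mt-Nd6 do), and none was called in any comparison by edgeR's quasi-likelihood test with Benjamini-Hochberg adjustment.

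The rRNAs form the core of the mitochondrial ribosome's subunits. The libraries were depleted of rRNA, and the part of that step in the rRNA levels, shares, ratio and relations below was not tested. mt-Rnr1 (chrM:70-1024 in GRCm38, plus strand), the 12S rRNA of the small subunit, stood at 192500.2, 213793 and 241116 in blank hearts, 198072, 208785 and 231455 in PLCb1a hearts and 206023, 225941 and 248205 in PLCb1b hearts. mt-Rnr2 (chrM:1094-2675, plus strand), the 16S rRNA of the large subunit, stood at 1709212, 1808584 and 1905054 in blank hearts, 1623351, 1734597 and 1901355 in PLCb1a hearts and 1742687, 1860676 and 2043586 in PLCb1b hearts. For both rRNAs the PLCb1b median was the highest and the PLCb1a median the lowest on this scale, and the groups overlapped. The largest of their log2 fold changes in size was 0.10 ± 0.057 (SE), for mt-Rnr2 in PLCb1b against PLCb1a (0.039 with library size only), and the lowest Benjamini-Hochberg adjusted p of edgeR's quasi-likelihood test for either rRNA was 0.837.

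mt-Rnr2 took 55.0, 55.6 and 56.8% of all counts in blank hearts, 53.5, 54.6 and 56.1% in PLCb1a hearts and 54.5, 56.3 and 57.5% in PLCb1b hearts. 5 of the 6 PLCb1a hearts lay below every blank heart, and the sixth, PLCb1a 14, lay among them. The means were 55.7% in blank (SD 0.593, n = 6), 54.6% in PLCb1a (SD 0.876) and 56.1% in PLCb1b (SD 0.992). PLCb1a was 1.09 points lower than blank (a difference of -1.09), with an exact two-sided permutation p of 0.0281 and an adjusted p of 0.127 over the 9 tests of this kind. PLCb1b was 1.5 points higher than PLCb1a, with an exact p of 0.0281 and an adjusted p of 0.127, and 4 of its 6 hearts lay above every PLCb1a heart. PLCb1b and blank differed by 0.406 points (exact p 0.405, adjusted p 0.520), and by 0.132 without PLCb1b 16 and 0.731 without PLCb1b 8 (adjusted p from 0.156 to 0.758 over the hearts left out). Neither difference from PLCb1a passed the threshold of 0.05 on the adjusted p. Without PLCb1a 14 both did: the differences were then -1.38 (adjusted p 0.0390, exact permutation) and 1.79 (adjusted p 0.0487), within a range of adjusted p from 0.0390 to 0.221 and from 0.0487 to 0.185 over the hearts left out. The smallest p that the arrangements of 6 against 6 hearts can give is 0.0022.

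The ratio of mt-Rnr2 to mt-Rnr1 counts does not depend on the scale. It was 7.76, 8.55 and 8.88 in blank hearts, 7.95, 8.21 and 8.46 in PLCb1a hearts and 7.93, 8.33 and 8.91 in PLCb1b hearts. The 3 groups overlapped, and the exact permutation p was 0.232 or higher in each comparison (adjusted p 0.417 or higher).

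Complex I, the entry point for electrons from NADH, takes 7 subunits from the mitochondrial genome. mt-Nd1 (chrM:2751-3707, plus strand), the subunit next to the site where ubiquinone is reduced, stood at 31837, 33747 and 41074 in blank hearts, 32483, 35271 and 41369 in PLCb1a hearts and 33836, 37731 and 43028 in PLCb1b hearts. mt-Nd2 (chrM:3914-4951, plus strand), a proton-pumping subunit, stood at 12285, 13643 and 19206 in blank hearts, 12953, 15484 and 19184 in PLCb1a hearts and 14462, 17555 and 19749 in PLCb1b hearts. For both genes the median was lowest in blank and highest in PLCb1b hearts, and the groups overlapped. The log2 fold change of mt-Nd2 in PLCb1b against blank was 0.25 ± 0.10 (SE), with an unadjusted p of 0.0233 and a Benjamini-Hochberg adjusted p of 0.593 by edgeR's quasi-likelihood test. In the same comparison mt-Nd1 had a log2 fold change of 0.12 ± 0.071 and an adjusted p of 0.744 by the same edgeR test.

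mt-Nd4 and mt-Nd5 are the other large proton-pumping subunits. mt-Nd4 (chrM:10167-11544, plus strand) stood at 7618, 8131 and 10712 in blank hearts, 7660, 9327 and 11198 in PLCb1a hearts and 8261, 10053 and 11534 in PLCb1b hearts. mt-Nd5 (chrM:11742-13565, plus strand) stood at 9781, 10911 and 15027 in blank hearts, 9492, 13032 and 15581 in PLCb1a hearts and 11245, 14447 and 15196 in PLCb1b hearts. Here too the median was lowest in blank and highest in PLCb1b hearts, with overlap among all groups, and blank 30 lay above the PLCb1b median for both genes. In PLCb1b against blank the log2 fold change was 0.29 ± 0.10 for mt-Nd5 (unadjusted p 0.00914, adjusted p 0.488) and 0.22 ± 0.092 for mt-Nd4 (unadjusted p 0.0257, adjusted p 0.613), both by edgeR's quasi-likelihood test with Benjamini-Hochberg adjustment. Against blank, PLCb1a gave 0.18 ± 0.10 and 0.11 ± 0.092 for mt-Nd5 and mt-Nd4. These ranged from 0.12 to 0.28 and from 0.049 to 0.19 as single hearts were left out, lowest without PLCb1a 14 and highest without blank 30 for both.

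mt-Nd6 (chrM:13552-14070, minus strand) is the only mRNA on the light strand, and its 3′ end overlaps that of mt-Nd5 by 14 bases on the other strand. It stood at 612.2, 748.8 and 1281 in blank hearts, 608.6, 866.4 and 972 in PLCb1a hearts and 660.1, 901.5 and 1033 in PLCb1b hearts. The groups overlapped, and both the highest heart and the lowest median belonged to the blank group. The ratio of mt-Nd6 to mt-Nd5 counts, which is free of the scale, was 0.0611, 0.0724 and 0.0853 in blank hearts, 0.0620, 0.0640 and 0.0701 in PLCb1a hearts and 0.0491, 0.0622 and 0.0713 in PLCb1b hearts. Its mean was 0.0616 in PLCb1b and 0.0721 in blank hearts, a difference of -0.0106 with an exact permutation p of 0.0498 and an adjusted p of 0.149, and 3 of the 6 PLCb1b hearts lay below every blank heart. For PLCb1a against blank the difference was -0.00713 (exact p 0.0758, adjusted p 0.170), so no difference in this ratio passed the threshold. The latter ran from -0.00935 without blank 36 to -0.00450 without blank 30, with adjusted p by the exact permutation test from 0.0633 to 0.307 over the hearts left out.

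Complex III, which passes electrons from ubiquinol to cytochrome c, has mt-Cytb (cytochrome b) as its mitochondrial subunit. mt-Cytb (chrM:14145-15288, plus strand) stood at 32055, 34161 and 40094 in blank hearts, 34704.5, 36996 and 43153 in PLCb1a hearts and 35648, 40076 and 44461 in PLCb1b hearts. The lowest, median and highest values were each ordered blank, PLCb1a, PLCb1b, and the groups overlapped. Its unadjusted p in PLCb1b against blank was the lowest of the 22 tested members there: the log2 fold change was 0.19 ± 0.065 (SE, n = 6 against 6), with an unadjusted p of 0.00799 and a Benjamini-Hochberg adjusted p of 0.482 by edgeR's quasi-likelihood test. PLCb1a against blank gave 0.12 ± 0.065, with an adjusted p of 0.613 by the same edgeR test, and from 0.078 without PLCb1a 14 to 0.17 without blank 30.

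Complex IV, cytochrome c oxidase, has its catalytic subunit in mt-Co1, and this was the mitochondrial mRNA with the most counts per length; in deposited FPKM, where it is at 0 in 14 hearts, mt-Co3 has a median of 42398 in blank hearts and mt-Co1 at most 48107 in any heart. mt-Co1 (chrM:5328-6872, plus strand) stood at 107948, 112829.7 and 127269 in blank hearts, 112769, 115243 and 124361 in PLCb1a hearts and 112667, 119015 and 131646 in PLCb1b hearts. The groups overlapped over most of their ranges. The log2 fold changes were 0.068 ± 0.053, 0.039 ± 0.053 and 0.028 ± 0.053 in PLCb1b against blank, PLCb1a against blank and PLCb1b against PLCb1a, with adjusted p of 0.811 or higher by edgeR's quasi-likelihood test with Benjamini-Hochberg adjustment. These moved with single hearts: from 0.040 without PLCb1b 17 to 0.10 without blank 30 in the first, from 0.019 without PLCb1a 14 to 0.077 without blank 30 in the second, and from -0.00021 without PLCb1b 17 to 0.049 without PLCb1b 4 in the third. With library size only, the log2 fold changes of mt-Co1 were 0.030, 0.065 and -0.035.

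The 7 mRNAs described so far, each with at least 3107 counts in every heart, had log2 fold changes above 0 in all 3 comparisons with the scaling used here, whereas mt-Nd1, mt-Co1 and mt-Nd6 lay below 0 in both comparisons with blank when scaled to the summed mitochondrial mRNAs, and in PLCb1b against PLCb1a when scaled by library size alone. A scale made of the mRNAs themselves centres them, so that some lie below 0 by construction, and it shows only their order. Scaled to the summed mRNAs they lay at -0.0058, -0.060 and -0.069 in PLCb1b against blank and at -0.011, -0.032 and -0.049 in PLCb1a against blank. On that scale mt-Nd2, mt-Nd4, mt-Nd5 and mt-Cytb lay above 0 in both, and mt-Co1 and mt-Nd6 below 0 in PLCb1b against PLCb1a as well, at -0.028 and -0.020. With TMM scaling, the log2 fold change of mt-Nd6 fell on either side of 0 as hearts were left out, from -0.032 without blank 36 to 0.21 without blank 30 in PLCb1b against blank.

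The other 6 mRNAs had at most 50 counts in any heart. They are mt-Co2 and mt-Co3, the further core subunits of complex IV, mt-Atp6 and mt-Atp8 of complex V, the ATP synthase, and mt-Nd3 and mt-Nd4l of complex I. mt-Co2 had 17 to 36 counts, mt-Co3 12 to 50, mt-Atp6 7 to 22, mt-Nd3 6 to 29, and mt-Atp8 and mt-Nd4l 0 to 2 each. mt-Atp8 and mt-Nd4l did not pass the filter on low counts. All 6 genes lie together on chrM, from mt-Co2 at base 7013 to mt-Nd4l at base 10173, between mt-Co1 and mt-Nd4. In the deposited FPKM values these 6 genes were above 0 in every heart, for example mt-Co2 at 34946 to 41202 FPKM and mt-Atp8 at 29786 to 39838 FPKM.

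Of these 6 genes, 5 have a near-identical copy on a nuclear chromosome over almost their whole length, and mt-Atp8 has one of its end. Among reference transcripts of the same genome build (GENCODE vM21, GRCm38), unprocessed pseudogenes on the minus strand at chr1:24611535-24616197 match chrM between bases 6390 and 11042 at identities of 99.71 to 100%. Gm28661 matches 681 of the 684 bases of mt-Co2 at 100%, Gm28437 783 of the 784 bases of mt-Co3, Gm10925 678 of the 681 bases of mt-Atp6 and Gm10222 294 of the 297 bases of mt-Nd4l. Gm28438 matches 345 of the 348 bases of mt-Nd3 with 1 mismatch. The match reaches into both flanking genes: Gm29216 matches the last 483 of the 1545 bases of mt-Co1 with 1 mismatch, and Gm28439 the first 876 of the 1378 bases of mt-Nd4 with none. No reference transcript lies between the copies of mt-Co2 and mt-Atp6, so only the 43 bases that mt-Atp8 shares with mt-Atp6 could be compared. The deposited gene models hold 0 features in the chromosome 1 stretch. The counting program in its usual setting leaves out reads that align to more than 1 place, which is background; the reads were not at hand, and the part this played in the counts was not tested.

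Sequences at both ends of the stretch that reference transcripts match and, for mt-Nd3, inside it are shown because they hold the bases that tell the copies apart and the last base that a reference transcript covers. Capitals mark the differing base in the first 33 bases of mt-Nd3 (chrM:9459-9491, plus strand) and of Gm28438 (chr1:24613087-24613119, minus strand), T3C counted from the first base of mt-Nd3, and in bases 1063 to 1096 of mt-Co1 (chrM:6390-6423, plus strand) and the matching bases of Gm29216 (chr1:24616155-24616188, minus strand), A1066T counted from the first base of mt-Co1. In bases 827 to 926 of mt-Nd4 (chrM:10993-11092, plus strand) capitals mark the bases identical in Gm28439, whose reference transcript ends at base 876 of mt-Nd4; no genome sequence was at hand, and the bases beyond were not compared. All are written 5′ to 3′ from GENCODE vM21.
mt-Nd3: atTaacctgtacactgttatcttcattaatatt
Gm28438: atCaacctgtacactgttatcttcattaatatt
mt-Co1: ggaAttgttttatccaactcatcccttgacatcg
Gm29216: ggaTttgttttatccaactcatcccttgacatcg
mt-Nd4: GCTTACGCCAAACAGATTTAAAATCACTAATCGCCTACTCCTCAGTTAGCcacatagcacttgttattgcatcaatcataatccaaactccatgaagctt

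Complex V needs both of its mitochondrial subunits in its membrane part, and their genes overlap. The 204 bases of mt-Atp8 (chrM:7766-7969, plus strand) are shown because its last 43 bases, in capitals, are also the start of mt-Atp6, so a read there belongs to both genes.
mt-Atp8: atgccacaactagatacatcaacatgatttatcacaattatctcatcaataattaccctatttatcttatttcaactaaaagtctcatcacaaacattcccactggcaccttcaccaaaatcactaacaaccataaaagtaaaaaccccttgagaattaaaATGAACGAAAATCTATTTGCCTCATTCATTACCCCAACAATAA

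The levels of the 6 low mRNAs rest on few counts. mt-Atp6 stood at 2.09, 2.43 and 4.15 in blank hearts, 1.16, 1.997 and 3.33 in PLCb1a hearts and 2.49, 3.26 and 3.71 in PLCb1b hearts. Its unadjusted p of 0.00615 in PLCb1b against PLCb1a was the only value below 0.05 among the members in that comparison by edgeR, at a log2 fold change of 0.64 ± 0.21 and a Benjamini-Hochberg adjusted p of 0.959, from 7 to 22 counts per heart. With limma on log2(FPKM + 1) the log2 fold change of mt-Atp6 in that comparison was 0.060, with an unadjusted p of 0.320. The groups overlapped. mt-Co2 stood at 2.74, 4.51 and 5.37 in blank, 4.33, 4.64 and 5.12 in PLCb1a and 3.02, 3.59 and 4.85 in PLCb1b hearts. mt-Co3 stood at 3.38, 4.26 and 4.92 in blank, 2.17, 3.94 and 6.59 in PLCb1a and 4.14, 4.81 and 6.53 in PLCb1b hearts. mt-Nd3 stood at 1.06, 2.58 and 3.66 in blank, 1.08, 2.31 and 3.82 in PLCb1a and 1.86, 2.86 and 3.31 in PLCb1b hearts. All groups overlapped for these 3 genes, whose adjusted p by edgeR's quasi-likelihood test with Benjamini-Hochberg adjustment were 0.828 or higher. The median of mt-Atp8 was 0.0804 in blank, 0.148 in PLCb1a and 0.320 in PLCb1b hearts, and that of mt-Nd4l 0.0723, 0.297 and 0.186, from at most 2 counts per heart.

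Levels between genes are compared here per length, as counts per kb of gene model per 1000000 nuclear counts. By the median of 18 hearts mt-Rnr2 stood at 1143226 and mt-Rnr1 at 227846.5, followed by mt-Co1 at 74591, mt-Nd1 at 36855, mt-Cytb at 32266, mt-Nd2 at 14814, mt-Nd5 at 7145, mt-Nd4 at 6910 and mt-Nd6 at 1645. In these counts the rRNAs thus lay above every mRNA, with mt-Rnr2 5.02 times as high as mt-Rnr1. How much of each rRNA was left by the depletion of rRNA is not known, and its part in this order was not tested. The next in order, mt-Nd3, lay at 7.64, a median 215 times lower than that of mt-Nd6, and mt-Co2, mt-Co3, mt-Atp6, mt-Atp8 and mt-Nd4l followed at 6.57, 5.66, 3.73, 0.799 and 0.537. Deposited FPKM turns the order of mt-Nd3 and mt-Nd6, with medians of 17770 and 600 in blank hearts. The part of reads that align to more than 1 place in this order was not tested. Neighbours with separate ranges were mt-Rnr2 and mt-Rnr1, mt-Rnr1 and mt-Co1, mt-Co1 and mt-Nd1, mt-Cytb and mt-Nd2, mt-Nd2 and mt-Nd5, mt-Nd4 and mt-Nd6, and mt-Nd6 and mt-Nd3. The ranges of mt-Nd1 and mt-Cytb overlapped, though mt-Nd1 was the higher in each of 18 hearts. mt-Nd5 was higher than mt-Nd4 in 12 of 18 hearts and lower in the others. Over only the bases that no reference transcript matches, an alternative chosen after the values were seen, the median of mt-Nd4 was 18969 per kb and that of mt-Co1 108515.

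**Figure D3:**
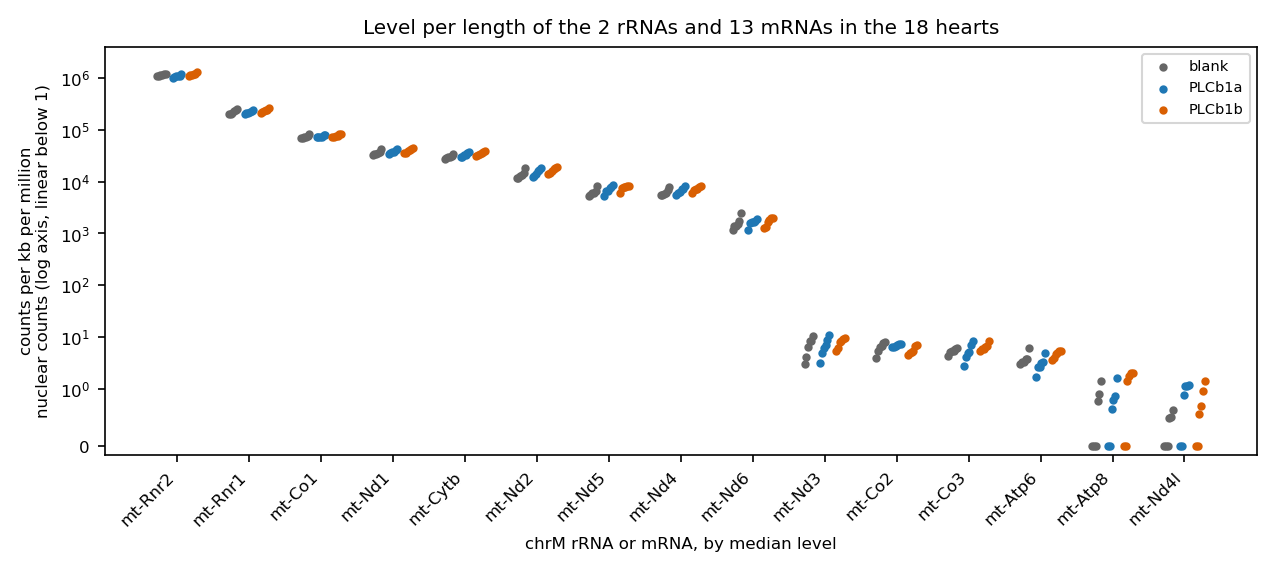
Counts per kb of gene model per 1000000 nuclear counts (log axis, linear below 1) of the rRNAs and mRNAs in each heart, coloured by group. In these counts the levels drop from 1645 for mt-Nd6 to 7.64 for mt-Nd3 (medians of 18 hearts), and the groups overlap for each gene. Deposited FPKM turns this order, with medians in blank hearts of 600 for mt-Nd6 and 17770 for mt-Nd3. mt-Nd3 has a near-identical copy on chromosome 1, and the part of reads that align to more than 1 place was not tested.

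The tRNAs carry the amino acids to the mitochondrial ribosome, and they gave 1327 to 3654 counts per heart in all. Their genes are 59 to 75 bases long, shorter than the 76-base reads. 8 tRNAs had 0 counts in all hearts: those for phenylalanine (mt-Tf), aspartate (mt-Td), lysine (mt-Tk), glycine (mt-Tg), arginine (mt-Tr), histidine (mt-Th) and both for serine (mt-Ts1 and mt-Ts2). A count of 0 allows up to 3 counts, or 0.395 to 0.768 counts per 1000000 nuclear counts, for counting error only. In deposited FPKM mt-Ts1 was above 0 in blank 32 and PLCb1a 14, at up to 7126 FPKM, and mt-Tg in blank 26. mt-Th was above 0 FPKM in blank 33, blank 36, PLCb1a 7, PLCb1b 4 and PLCb1b 16. mt-Ts1, mt-Td, mt-Tk, mt-Tg and mt-Tr lie in the stretch of chrM that the chromosome 1 pseudogenes span. mt-Tl2 had 1 count in 1 heart, mt-Tv and mt-Tn at most 4, mt-Tl1 at most 5, mt-Tc at most 13 and mt-Ty at most 14.

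The tRNAs also differ in the room around each gene. The 8 tRNAs with a gap of at most 3 bases to the next gene of the same strand on both sides had 0 to 5 counts per heart. Of the 11 with a gap of at least 70 bases, or no further gene, on at least 1 side, 9 had counts in the range up to 1526, and mt-Tf and mt-Ts1 had 0. The other 3, mt-Tn, mt-Tc and mt-Td, had 0 to 13, and of these mt-Td, with a gap of 69 bases on 1 side, had 0. The limits of 3 and 70 bases were chosen after the values were seen. In its union mode the counting program leaves out reads that overlap more than 1 gene, which is background, and its part in these counts was not tested. The tRNAs with the most counts, mt-Ti (chrM:3706-3774, plus strand), mt-Tw (chrM:4950-5016, plus strand) and mt-Tq (chrM:3772-3842, minus strand), are shown beside mt-Tv (chrM:1025-1093, plus strand), which lies flush between the rRNAs and had at most 4 counts. Capitals mark bases that the gene shares with another gene of either strand, of which mt-Tv has none, and all are written 5′ to 3′ from GENCODE vM21 (GRCm38).
mt-Ti: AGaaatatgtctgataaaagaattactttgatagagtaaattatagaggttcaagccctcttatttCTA
mt-Tw: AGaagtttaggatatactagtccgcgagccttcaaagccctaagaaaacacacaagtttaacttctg
mt-Tq: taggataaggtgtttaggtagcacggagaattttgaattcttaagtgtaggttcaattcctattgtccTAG
mt-Tv: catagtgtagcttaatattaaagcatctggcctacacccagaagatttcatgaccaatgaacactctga

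mt-Ti, the tRNA for isoleucine, stood at 116.5, 143.4 and 282.6 in blank hearts, 116.6, 139.1 and 296.8 in PLCb1a hearts and 127, 159.8 and 214.9 in PLCb1b hearts. mt-Tw, the tRNA for tryptophan, stood at 87.2, 106.1 and 196.7 in blank hearts, 83.2, 110.5 and 154.5 in PLCb1a hearts and 100.6, 137.2 and 160.7 in PLCb1b hearts. The groups overlapped for both, and blank 30 was the highest blank heart for each. Per length, mt-Ti at 2153 and mt-Tw at 1721 (medians of counts per kb per 1000000 nuclear counts) lay in the range of mt-Nd6, and mt-Tq at 489 lay below them. The log2 fold changes of mt-Ti and mt-Tw lay between -0.067 and 0.16, or between -0.30 (mt-Ti in PLCb1a against blank without PLCb1a 14) and 0.31 (mt-Tw in PLCb1b against blank without blank 30) as single hearts were left out. The lowest adjusted p among the 9 tested tRNAs was 0.861 by edgeR's quasi-likelihood test with Benjamini-Hochberg adjustment. The further tested tRNAs were mt-Tm with 99 to 182 counts, mt-Tt with 61 to 284, mt-Tp with 50 to 226, mt-Te with 1 to 62, mt-Ta with 4 to 24 and mt-Ty with 0 to 14.

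mt-Tq, the tRNA for glutamine on the light strand, stood at 10.8, 13.9 and 76.3 in blank hearts, 12.6, 34.7 and 52.2 in PLCb1a hearts and 9.51, 46.3 and 61.5 in PLCb1b hearts. Each group held low and high hearts, with the low ones most common in blank. The log2 fold change in PLCb1b against blank was 0.25 ± 0.46 (SE), with an adjusted p of 0.927 by edgeR's quasi-likelihood test with Benjamini-Hochberg adjustment, and it ran from 0.049 without blank 36 to 0.79 without blank 30. In 7 hearts mt-Tq lay between 9.51 and 15.3, and in the other 11 between 27.6 and 76.3, with no heart between. The low hearts were blank 32, 33, 34 and 36, PLCb1a 21 and PLCb1b 4 and 6.

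The same 7 hearts were set against the other 11 for all 29 members with counts, on both strands. The 7 hearts were picked by mt-Tq, so its own separation was fixed in advance. Every one of the 7 also lay below every one of the 11 for mt-Nd6 and mt-Ty, both on the light strand. Nuclear genes were not split in this way, so the share of all genes that separate the same hearts is not known. mt-Nd6 lay between 608.6 and 780.4 in the 7 and between 828.7 and 1281 in the 11, and mt-Ty between 0 and 0.804 and between 1.26 and 2.47, from at most 14 counts per heart. The other light-strand tRNAs with counts, mt-Tp, mt-Te, mt-Ta, mt-Tc and mt-Tn, had ranges that met: mt-Tp, for example, lay between 9.60 and 15.8 in the 7 and between 14.9 and 41.9 in the 11.

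Several heavy-strand mRNAs were also low in most of these 7 hearts. mt-Nd1 lay between 31837 and 34847 in the 7, and 10 of the other 11 hearts lay above all of them. For mt-Nd5, 6 of the 7 hearts lay below all of the 11, whose lowest was at 12032, and 7 of the 11 lay above all of the 7. Of the 11, 9 lay above all of the 7 for mt-Nd2, 8 for mt-Nd4, 8 for mt-Cytb and 6 for mt-Co1. The rRNAs overlapped more, with 5 of the 11 above all of the 7 for mt-Rnr1 and 2 for mt-Rnr2. Among heavy-strand tRNAs the number was 6 for mt-Ti, as for mt-Co1, 4 for mt-Tw, 4 for mt-Tm and 0 for mt-Tt. This pattern was chosen after the values were seen and is a description with no test. All these values share their library and the count of nuclear genes they are divided by, and the labels name no batch.

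**Figure D4:**
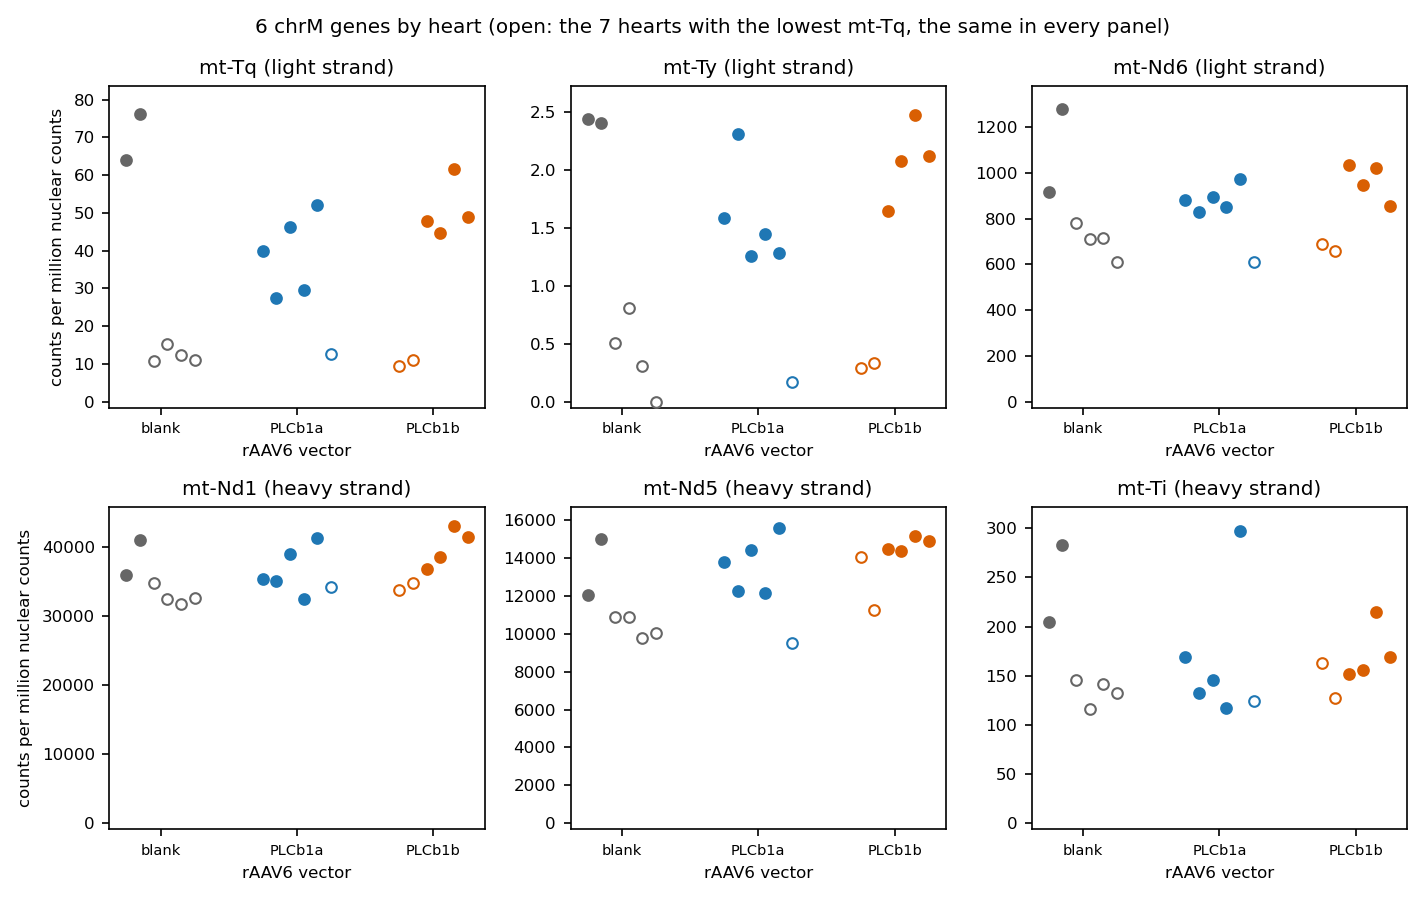
Counts per 1000000 nuclear counts of mt-Tq, mt-Ty and mt-Nd6 (light strand) and of mt-Nd1, mt-Nd5 and mt-Ti (heavy strand) by group and heart, with the 7 hearts of lowest mt-Tq drawn as open circles in each panel. For mt-Tq the open circles lie below all filled ones by construction, and they also do so for mt-Ty and mt-Nd6. For mt-Nd1 they lie below 10 of the 11 filled ones, and for mt-Nd5, but for 1 heart, below all filled ones. For mt-Ti they lie among the filled ones, between 116.5 and 163.3.

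Across the 18 hearts 4 relations were computed on levels per 1000000 nuclear counts, with permutation p adjusted over the 4; the points of each relation share that denominator. mt-Rnr2 and mt-Rnr1, which come from the same precursor, had a Pearson r of 0.843 (permutation p 2.0e-05, adjusted p 8.0e-05) and a Spearman rho of 0.812 (permutation p 0.00014, adjusted p 0.00028). Within blank, PLCb1a and PLCb1b hearts r was 0.910, 0.908 and 0.804 (unadjusted exact permutation p 0.0208, 0.0139 and 0.0486, n = 6 each). Without the 2 hearts farthest from the median the pooled r was 0.776. mt-Nd6 and mt-Nd5, on opposite strands, had an r of 0.766 (permutation p 0.00018, adjusted p 0.00036) and a rho of 0.823 (permutation p 2.0e-05, adjusted p 8.0e-05). Within the groups r was 0.977, 0.957 and 0.729 (unadjusted exact permutation p 0.00972, 0.00278 and 0.0292), and without the 2 farthest hearts 0.718.

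The summed mRNAs and mt-Rnr2 had an r of 0.669 (permutation p 0.00239, adjusted p 0.00319) and a rho of 0.620 (permutation p 0.00733, adjusted p 0.00977). Within the groups r was 0.727, 0.849 and 0.668 (unadjusted exact permutation p 0.101, 0.0167 and 0.131), and without the 2 farthest hearts 0.586. The summed mRNAs and the summed nuclear genes for respiratory chain subunits, which meet in the same complexes, had an r of -0.468 (permutation p 0.0521, adjusted p 0.0521) and a rho of -0.424 (permutation p 0.0812, adjusted p 0.0812). Within the groups r was -0.52, -0.59 and -0.54 (unadjusted exact permutation p 0.297, 0.186 and 0.281), and without the 2 farthest hearts -0.42. The first 3 relations passed the threshold of 0.05 on the adjusted p in the pooled hearts, and the fourth did not. The permutations shuffled levels already divided by nuclear counts, and the pooled ones did so across the groups. A low p therefore cannot tell a relation between the genes apart from the denominator they share.

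The nuclear genes that make, process and complement these transcripts were taken from 6 lists, and none of their members was called in any comparison by edgeR's quasi-likelihood test with Benjamini-Hochberg adjustment. The nuclear respiratory chain list is the largest, with 72 genes tested of 75 names. Its median log2 fold change was -0.019 in PLCb1b against blank, -0.047 in PLCb1a against blank and 0.021 in PLCb1b against PLCb1a, with 26, 15 and 56 of the 72 above 0. By edgeR 4, 8 and 2 of the 72 had an unadjusted p below 0.05, beside 7.43, 8.81 and 4.56% of all genes tested. Ndufc2, an accessory subunit of complex I, stood at 126.9, 143.7 and 162.5 in blank hearts, 118.7, 129 and 138.8 in PLCb1a hearts and 126.3, 131.7 and 139.9 in PLCb1b hearts. Its log2 fold change in PLCb1a against blank was -0.15 ± 0.052, with an adjusted p of 0.378 by edgeR's quasi-likelihood test with Benjamini-Hochberg adjustment. Cox7a1, the heart and muscle form of a complex IV subunit, had -0.091 ± 0.035 in the same comparison, with an adjusted p of 0.428 by the same edgeR test.

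The lists for transcription and replication of mitochondrial DNA (15 genes tested), RNA processing and stability (23), tRNA charging and modification (30), rRNA modification (15) and regulators of biogenesis (12) had median log2 fold changes of -0.040, -0.038, -0.0067, -0.027 and -0.049 in PLCb1b against blank. In PLCb1a against blank the medians were -0.035, -0.048, -0.010, -0.12 and -0.0081, and in PLCb1b against PLCb1a 0.019, 0.010, 0.0068, 0.028 and -0.042. The 11 tested mitochondrial mRNAs had medians of 0.22, 0.066 and 0.10 in the same comparisons, the first 2 of which share the blank hearts. Over the 7 mRNAs with over 50 counts the medians were 0.19, 0.11 and 0.064. At an unadjusted p below 0.05 edgeR counted 1, 0, 1, 2 and 1 genes of these lists in PLCb1b against blank, 0, 4, 2, 0 and 2 in PLCb1a against blank and 1, 1, 0, 0 and 0 in PLCb1b against PLCb1a, beside 7.43, 8.81 and 4.56% of all genes tested.

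The 2 genes with the lowest p of each list are named, some of them with their levels. Slirp, which with Lrpprc steadies mitochondrial mRNAs, stood at 32.8, 39.5 and 41.0 in blank hearts, 30.03, 32.8 and 37.6 in PLCb1a hearts and 30.4, 37.3 and 40.4 in PLCb1b hearts. Its log2 fold change in PLCb1a against blank was -0.22 ± 0.072 (adjusted p 0.348), and Ptcd2 of the same list had -0.14 ± 0.050 (adjusted p 0.378), both by edgeR's quasi-likelihood test with Benjamini-Hochberg adjustment. Ppara, a nuclear receptor that drives fatty acid oxidation genes, stood at 144.4, 169.1 and 175.2 in blank hearts, 136.5, 143.3 and 173.2 in PLCb1a hearts and 115.3, 144.7 and 160.6 in PLCb1b hearts. Its log2 fold change was -0.22 ± 0.066 in PLCb1b against blank (adjusted p 0.385), and Pprc1, a coactivator of the same list, had 0.29 ± 0.10 in PLCb1a against blank (adjusted p 0.382), by the same edgeR test. The groups overlapped for Slirp and Ppara.

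Among the factors that act on mitochondrial DNA, Top1mt, its topoisomerase, had a log2 fold change of -0.36 ± 0.15 in PLCb1b against PLCb1a, and Tfb2m, which opens the promoter for the mitochondrial RNA polymerase, had 0.19 ± 0.087 in PLCb1b against blank. Of the rRNA methyltransferases, Rnmtl1 had -0.20 ± 0.079 and Mettl15 -0.27 ± 0.12 in PLCb1b against blank. Of the tRNA charging enzymes, Ears2 for glutamate had 0.24 ± 0.11 in PLCb1a against blank. The adjusted p of these 5 values were 0.9999, 0.632, 0.562, 0.626 and 0.524 by edgeR's quasi-likelihood test with Benjamini-Hochberg adjustment. Lars2, which charges the leucine tRNAs, stood at 12.6, 17.7 and 25.2 in blank hearts, 12.04, 24.9 and 174 in PLCb1a hearts and 12.1, 20.6 and 439.8 in PLCb1b hearts. In each vector group 1 heart, PLCb1a 21 with 1033 counts and PLCb1b 17 with 2493, lay far above the median of its group. The log2 fold change was 2.27 ± 0.79 in PLCb1b against blank, with an adjusted p of 0.483 by the same edgeR test.

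The tissue was checked with 8 lists of cell type markers, as summed counts per 1000000 nuclear counts. The 8 cardiomyocyte markers summed to 171200, 176600 and 183800 in blank hearts, 172600, 180300 and 184900 in PLCb1a hearts and 171100, 174600 and 178000 in PLCb1b hearts, with Ttn the most abundant and none at 0. The fibroblast markers, led by Dcn, had medians of 1167, 1263 and 1272 in blank, PLCb1a and PLCb1b hearts, the endothelial markers, led by Kdr, 1010, 1026 and 1086, and the macrophage and leukocyte markers, led by Lyz2, 268.5, 245.8 and 259.1. Smooth muscle and pericyte markers, led by Rgs5, had medians of 717.6, 724.8 and 741.7, and atrial markers, led by Nppa, 145.8, 155.9 and 139.4. Adipocyte markers, led by Cidea, had medians of 19.98, 21.6 and 22.6, and erythrocyte markers, led by Alas2, 26.9, 42.7 and 33.7, with the 4 globin genes of that list at 0 in the count table. The cardiomyocyte sums overlapped between all groups. The medians for fibroblasts, endothelial cells, smooth muscle and pericytes, adipocytes and erythrocytes were lowest in blank hearts, as were those of the 7 abundant mitochondrial mRNAs, and the other 3 lists had their lowest median in a vector group. The part of cell composition in the mRNA values was not tested.

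The deposited FPKM values list several of the most abundant of these genes at 0. All 37 are in the FPKM table, and in 111 pairs of heart and gene the FPKM is 0 where the count is at least 100; these pairs come from 8 genes. mt-Rnr2 is at 0 FPKM in all 18 hearts, where it has at least 7431168 counts. mt-Rnr1 is above 0 only in blank 26, blank 32 and PLCb1a 14, and mt-Co1 only in these and PLCb1b 10. For these 2 genes the hearts above 0 are those with the fewest counts: mt-Rnr1 had at most 906741 counts where FPKM was above 0 and at least 1129788 where it was 0, and mt-Co1 at most 577683 and at least 620380. The tRNAs at 0 FPKM do not follow this order: mt-Ti was above 0 at up to 931 counts and at 0 with 580, mt-Tw above 0 at up to 1173 and at 0 with 394, and mt-Tq above 0 at 215 and at 0 with 43. The order of genes differs too, since mt-Co2, at a median of 35194 FPKM in blank hearts, lies above mt-Cytb at 12363 FPKM, while in counts per length mt-Cytb is far above mt-Co2.

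**Figure D5:**
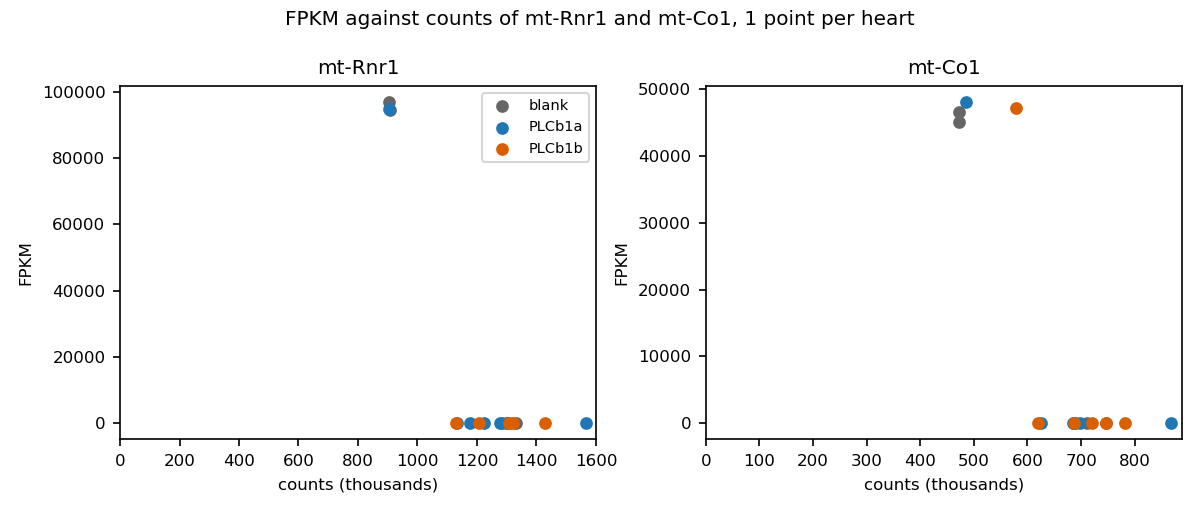
FPKM against counts of mt-Rnr1 and mt-Co1, with 1 point per heart coloured by group. All hearts with at least 1129788 counts of mt-Rnr1 or at least 620380 counts of mt-Co1 are listed at 0 FPKM.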

How the data were processed

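The deposited counts, per the labels and the study's methods, come from rRNA-depleted, strand-specific paired reads of 76 bases, aligned with TopHat2 2.0.10 to mm10 with the Ensembl mitochondrial sequence and counted with HTSeq in union mode; the authors left them unnormalized. The deposited FPKM values come from a program that the methods do not name; per the labels, Cufflinks 2.1 is among the tools. Here counts were tested with edgeR 4.0.16 (R 4.3.3): genes passing filterByExpr (minimum count 10) were scaled by TMM, fitted over all 18 hearts by group and tested by the quasi-likelihood F test, with Benjamini-Hochberg adjustment over 12281 genes and calls at a false discovery rate below 0.1. On simulated counts only the edgeR and DESeq2 fits were tested, with the same spread for all genes and changes larger than the members' by edgeR. Single values were compared by exact two-sided permutation tests. Levels are counts per 1000000 nuclear counts. Copies were sought with blastn 2.17.0. DESeq2 1.42.0, limma 3.58.1 on log2(FPKM + 1), other scalings, no filter and each heart left out were alternatives. Named genes are all members and, per nuclear list, the called genes or else the 2 with the lowest p. Members and lists were chosen with earlier results of these data known.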

Additional observations from a re-analysis of the deposited data

Results flagged for a closer look

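In 6 of 109 groups of 6 hearts, 1 heart stood far from the other 5 in the level of a member (counts per 1000000 nuclear counts), where about 1 in 20 groups is expected to by chance. The groups cover the 29 members with counts and 8 shares, ratios and totals. mt-Atp6 was at 4.15 in blank 26, and the nearest other blank heart was at 2.604. mt-Ta was at 4.445 in blank 30 (nearest 1.517), and mt-Tc at 2.408 in the same heart (nearest 0.758). Those are members with at most 24 counts per heart. mt-Nd5 was at 11245 in PLCb1b 6, below the nearest other PLCb1b heart at 14041. mt-Ti was at 296.8 in PLCb1a 14, and the nearest other PLCb1a heart was at 169.4. mt-Tl2 was at 0.206 in PLCb1b 16, from 1 count, and at 0 in the other PLCb1b hearts.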

How the results depend on the processing

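No mitochondrial gene was called in any comparison under the alternatives tested across all genes. This holds for edgeR's quasi-likelihood test, DESeq2 and limma, each with Benjamini-Hochberg adjustment. At an unadjusted p below 0.05 there were 4, 0 and 1 by edgeR as reported and 2, 0 and 2 by DESeq2. By limma on log2(FPKM + 1) there were 6, 0 and 0, of 29 members tested. Scaling to the summed mitochondrial mRNAs gives no call, since it was fitted on the mRNAs alone; its lowest unadjusted p by edgeR was 0.00325, for mt-Cytb in PLCb1b against blank. Of 48 log2 fold changes (16 mitochondrial genes in 3 comparisons), 27 kept their sign under every alternative compared for that gene: 11, 6 and 10 of 16 in PLCb1b against blank, PLCb1a against blank and PLCb1b against PLCb1a. Of the 48, 34 kept their sign under the 31 alternatives run for all 16 genes: 14 of 16 in PLCb1b against blank, 9 of 16 in PLCb1a against blank and 11 of 16 in PLCb1b against PLCb1a. Scaling to the summed mRNAs was fitted on mRNAs only. The fit on FPKM tested 29 members, but its log2 fold changes were compared for mRNAs only. Robust dispersions, TMM before the filter, kept library sizes, their combinations, limma on FPKM and the length that no reference transcript matches were chosen after seeing the data. Library size alone moved the median of all genes by less than 0.1. For the genes with 0 to 50 counts per heart, depth limits what differences were detectable. The cause of the changes below was not tested.

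The number of genes called in PLCb1b against blank, 12 as reported, was 6 at a false discovery rate below 0.05, 24 with DESeq2, 7 with library size only, 26 with no filter, 6 with only the 2 groups compared and 5 with limma on log2(FPKM + 1). In PLCb1a against blank it was 10 as reported, 2 below 0.05, 33 with DESeq2, 32 with no filter, 6 with only the 2 groups, 17 with robust dispersions, 16 with TMM before the filter as well, 17 with robust dispersions and library sizes kept, 16 with all 3 changes and 6 with limma on FPKM. In PLCb1b against PLCb1a it was 1 as reported, 2 with no filter, 2 with only the 2 groups and 0 with robust dispersions, alone or in the other 3 combinations, by edgeR's quasi-likelihood test with Benjamini-Hochberg adjustment, where 2 mitochondrial genes had an unadjusted p below 0.05 and DESeq2 called 1 gene. The gene lost is Plcb1, whose adjusted p went from 0.00919 to 0.801 with robust dispersions, to 0.780 with all 3 changes and to 0.633 with limma on FPKM, which called 1 other gene there.

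mt-Co1 is at 0 FPKM in 14 of 18 hearts, so its values on that scale follow which hearts are at 0. With limma on log2(FPKM + 1), log2 fold changes turned to -2.57 for mt-Co1 and 0.096 for mt-Co2 in PLCb1b against blank, to -2.57 for mt-Co1, 0.051 for mt-Atp6 and -0.032 for mt-Nd3 in PLCb1a against blank, and to -0.0044 for mt-Co1 and 0.058 for mt-Co2 in PLCb1b against PLCb1a. With library size only they turned to 0.012 for mt-Rnr1 in PLCb1a against blank and to -0.0031 for mt-Nd1, -0.035 for mt-Co1 and -0.023 for mt-Nd6 in PLCb1b against PLCb1a. Scaled to the summed mitochondrial mRNAs, where some must lie below 0 by construction, they were -0.0058 for mt-Nd1, -0.060 for mt-Co1 and -0.069 for mt-Nd6 in PLCb1b against blank, -0.011 for mt-Nd1, -0.032 for mt-Co1, -0.040 for mt-Co3, -0.0013 for mt-Nd3 and -0.049 for mt-Nd6 in PLCb1a against blank, and -0.028 for mt-Co1 and -0.020 for mt-Nd6 in PLCb1b against PLCb1a.

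Over a denominator without the 2 rRNAs, the median share of mRNAs was 17.75, 18.41 and 19.34% in blank, PLCb1a and PLCb1b hearts and that of tRNAs 0.02739, 0.02928 and 0.03359%. Over the length that no reference transcript matches, levels were 108515.4 per kb for mt-Co1 and 18968.6 for mt-Nd4.

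With each heart left out, genes called in PLCb1b against blank ranged from 4 to 17: 4 without blank 34 or PLCb1b 4, 6 without PLCb1b 17, 7 without blank 33 or PLCb1b 6, and 17 without blank 26, with 9 to 12 otherwise. In PLCb1a against blank they ranged from 2 to 20: 2 without blank 30, blank 34, PLCb1a 7, PLCb1a 11, PLCb1b 6 or PLCb1b 10, 4 without PLCb1a 14, 6 without blank 26, blank 32 or PLCb1a 9, 16 without blank 33, 17 without PLCb1b 8 or PLCb1b 16, and 20 without PLCb1a 13, with 8 to 13 otherwise. In PLCb1b against PLCb1a they were 2 without blank 26, 30 or 32, PLCb1a 14 or PLCb1b 8 or 17, and 1 otherwise. In PLCb1b against blank, log2 fold changes ranged from -0.032 (without blank 36) to 0.21 (without blank 30) for mt-Nd6 and from -0.16 (without blank 33) to 0.15 (without blank 30) for mt-Ti, and stayed above 0 for mt-Tq, from 0.049 (without blank 36) to 0.79 (without blank 30). In PLCb1a against blank they ranged from -0.044 to 0.029 for mt-Rnr1, -0.17 to 0.17 for mt-Co3, -0.17 to 0.21 for mt-Nd3, -0.068 to 0.18 for mt-Nd6, -0.30 to 0.15 for mt-Ti, -0.14 to 0.15 for mt-Tw and -0.033 to 0.71 for mt-Tq. The highest of these came without blank 30, except for mt-Co3 and mt-Nd3, where it came without PLCb1a 13. In PLCb1b against PLCb1a they ranged from -0.00021 (without PLCb1b 17) to 0.049 for mt-Co1, -0.044 (without PLCb1a 21) to 0.10 for mt-Nd6, -0.096 (without PLCb1b 16) to 0.23 for mt-Ti and -0.12 (without PLCb1b 16) to 0.30 for mt-Tq. The median over the mitochondrial genes ranged from 0.060 to 0.28, from -0.036 to 0.16 and from 0.038 to 0.17 in the 3 comparisons. The difference in the share of mt-Rnr2 ranged from 0.132 to 0.731 points in PLCb1b against blank, from -1.383 to -0.854 in PLCb1a against blank and from 1.225 to 1.824 in PLCb1b against PLCb1a. By the exact permutation test, the differences from PLCb1a both passed the threshold without PLCb1a 14 (-1.383 and 1.788; adjusted p 0.0390 and 0.0487, within 0.0390 to 0.221 and 0.0487 to 0.185).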

Other observations

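Beyond the chromosome 1 stretch, 15 further genes on other chromosomes hold transcripts that match chrM genes at identities of 87.0 to 97.6%. Gm13340 on chromosome 2 matches all 1545 bases of mt-Co1 at 97.6%. Gm13341 on the same chromosome aligns with mt-Co2 from base 1 to base 684 at 95.9%, with gaps as well as 16 mismatches. Gm11408 on chromosome 4 matches all 519 bases of mt-Nd6 at 93.6%, and Gm11410 beside it 1142 of the 1144 bases of mt-Cytb at 92.9%. mt-Co1, mt-Nd6 and mt-Cytb each had at least 3107 counts in every heart, and mt-Co2 had at most 36.

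With library size set to the sum of the mitochondrial mRNAs, log2 fold changes in PLCb1b against blank were 0.17 ± 0.071 (SE) for mt-Nd5, 0.13 ± 0.061 for mt-Nd2, 0.094 ± 0.055 for mt-Nd4 and 0.059 ± 0.018 for mt-Cytb. On the same scale mt-Co1 lay at -0.060 ± 0.022 and mt-Nd1 at -0.0058 ± 0.021.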
